A study of Bos taurus with 16 samples.

Results

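A set of 13 loci whose reads peaked in 8-cell bovine embryos are described here, in single mature oocytes and single embryos that had developed in vivo. The loci were chosen by their 8-cell values, and these are given as a description without a test. A locus was taken when it carried a gene name (not a CUFF identifier of an unannotated transcript), held at least 50 normalized counts in both 8-cell embryos, and had an 8-cell mean at least 3 times the mean of every one of the other 7 stages. The rule was met by 13 of 24820 named loci, in a table of 27393 loci. With 2 samples at each of 8 stages, 16 samples were measured, namely oocytes at metaphase II (MII), embryos of 2, 4, 8 and 16 cells (2C, 4C, 8C and 16C), early morulae (EM), compact morulae (CM) and blastocysts (BL). The labels give no treatment, genotype, breed or animal, and each library came from a single oocyte or embryo after amplification of its RNA. Since no source says that these came from separate animals, p-values measure the spread between these samples. A normalized count is a read count divided by a size factor of its sample, is not divided by gene length, and is therefore compared between samples and not between genes.

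The early embryo first runs on transcripts stored in the oocyte. In cattle the embryonic genome is activated in the cleavage stages (EGA), around the 8-cell stage, when stored transcripts are being cleared and many embryonic genes come on. Most activated genes stay on into the morula and blastocyst. A smaller group is transcribed in a burst around EGA and then declines, and in several mammals that group holds zinc finger and homeobox transcription factors.

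Named by the deposited data, the 13 loci were KLF17, SYNE1, ANKFY1, SERINC4, AOAH and 8 loci with LOC numbers (LOC789309, LOC508086, LOC100137761, LOC100849737, LOC100850426, LOC100850879, LOC100296890 and LOC100295067). In the RefSeq gene table of assembly ARS-UCD2.0, 8 of the 13 were matched, all of them as protein-coding genes. By its gene number LOC100137761 is ZIM3 there and is called ZIM3 below. The loci LOC100849737, LOC100850426, LOC100850879, LOC100296890 and LOC100295067 had no entry.

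Both 8-cell values reached 50 normalized counts at 1426 named loci, and the 8-cell mean was the highest of the 8 stages at 345 of these. It was at least 1.5 times every other stage at 108 loci, at least 2 times at 46, at least 3 times at 13 and at least 5 times at 1, which was AOAH. The members nearest to the threshold were LOC100850426, LOC100850879 and SERINC4, with ratios of 3.28, 3.28 and 3.33 to the highest other stage. Just outside lay KANSL2, KIAA0913 and RNF168, at 2.93, 2.90 and 2.80. The same rule with another stage in place of the 8-cell stage found 88 named loci in MII oocytes, 1 in 2C, 8 in 4C, 4 in 16C, 2 in EM, 0 in CM and 111 in BL. In counts per 1000000 reads (CPM) it found 10 loci at the 8-cell stage, 9 of them among the 13. The early morula held 16 loci in CPM and thus more than the 8-cell stage, while it held fewer in normalized counts. LOC100849737, LOC100850879 and LOC100296890 fell to ratios of 2.85, 2.11 and 2.87 on that scale, and AOAH stayed under 50 CPM.

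**Figure D1:**
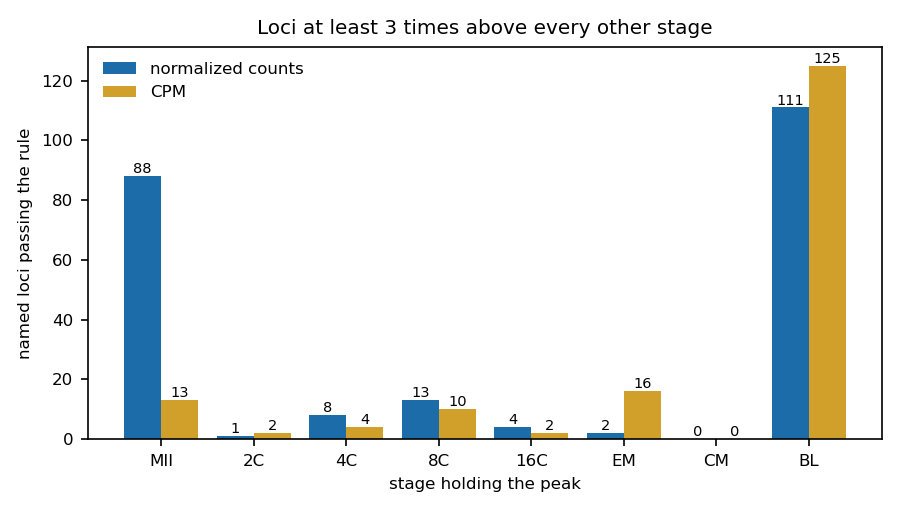
Number of named loci (y axis) whose mean in the stage on the x axis was at least 3 times that of every other stage, with both samples at 50 or more, in normalized counts (blue) and in CPM (yellow). The 8-cell stage held 13 and 10 such loci, while BL held 111 and 125 and MII oocytes 88 and 13. EM held 2 and 16, fewer than 8C in normalized counts and more in CPM.

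Between 607672 and 3379426 reads per sample were recovered from the normalized counts, 808192 and 1039587 of them in 8C replicates 1 and 2. A count of 3 reads, taken as the floor of detection, equal 5.40 and 3.44 normalized counts in these embryos and between 1.09 and 4.85 in the others. Floors cover counting error only. The 8-cell embryos stood further apart than the samples of any other stage, with a correlation of 0.729 between their log2 values over 9670 loci against 0.844 to 0.928 elsewhere. Of the 10 oocyte markers BMP15 was at 0 in every sample, and the list, mostly H1FOO, summed to 26.0 CPM in 8C replicate 1 and 1513 CPM in replicate 2, within a range of 5.89 to 10547.8 CPM over the other samples. The 10 markers of inner cell mass and trophectoderm, mostly POU5F1, summed to 6078 and 2913 CPM, against 145 to 5020 CPM elsewhere. Of 7 sperm markers, 5 were at 0 in every sample, and 6 of the 10 cumulus and granulosa markers were at 0 in both 8-cell embryos. The cumulus and granulosa list summed to 382 and 873 CPM in the 8-cell embryos, of which 379 and 842 CPM lay on STAR, and to 509 to 1986 CPM elsewhere. The 4 oviduct and uterine markers summed to 2.47 and 33.7 CPM, against 0.773 to 229.6 CPM elsewhere, with FOXJ1 at 0 in every sample. The 6 blood and immune markers summed to 19.8 and 13.5 CPM, against 3.08 to 19.1 CPM elsewhere. The highest of these sums was that of 8C replicate 1. In the 8-cell embryos 14.8 and 10.6 CPM of it lay on LYZ. LYZ had reads in every sample and was highest in BL replicate 2, at 17.6 CPM. PTPRC, which marks white blood cells, was above 0 only in 8C replicate 1, at 4.95 CPM. CD68 and CD14 were at 0 in that embryo, and HBB was at 0 in every sample. The part that these differences play in the values below was not tested. Less RNA per embryo and fewer cells expressing a gene cannot be told apart in whole embryos.

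Together the 13 loci took 2.11% of all reads in 8C replicate 1 and 3.10% in replicate 2. In the other samples their share ran from 0.0142% in MII replicate 2 to 0.892% in CM replicate 2. LOC789309 and LOC100849737 held 88.0% and 70.3% of the members' reads in the 8-cell embryos.

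Transcription factors came first by role. KLF17 (XLOC_050461) encodes a zinc finger factor of the Krüppel-like family that is known from cleavage-stage embryos. It held 989 and 4271 normalized counts in the 8-cell embryos. In the 6 samples of earlier stages it lay between 0 and 2.44, with no more than 3 reads in any. It then read 640.1 and 144 in 16C, 512 and 388 in EM, 595 and 744 in CM and 55.8 and 22.2 in BL. Both 8-cell embryos lay above all other samples, although replicate 2 exceeded replicate 1 by 4.32 times.

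ZIM3 (XLOC_025067) encodes a zinc finger protein with a KRAB domain, a module that recruits repressors to DNA. It was at 1.85 and 3.19 normalized counts in MII oocytes, 0.791 and 1.09 in 2C and 29.5 and 20.3 in 4C. In 8C it read 434 and 2452, followed by 572 and 113 in 16C, 248 and 290.1 in EM, 185 and 604 in CM and 20.3 and 4.75 in BL. The 8-cell mean was therefore carried mostly by replicate 2, and replicate 1 lay below 16C replicate 1 and CM replicate 2.

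LOC789309 (XLOC_024085) and LOC508086 (XLOC_024084) are next to each other in the numbering of the deposited loci, and are also neighbours in the RefSeq table. LOC789309 read 14283 and 18769.7 normalized counts in the 8-cell embryos, after 59.5 to 184 in the 6 earlier samples. It went on at 3502 and 296 in 16C, 3866 and 2163 in EM and 1745 and 6688 in CM, and ended at 5.07 and 3.17 in BL, from 5 and 2 reads. LOC508086 was at 0 in both MII oocytes and at no more than 4.87 in the cleavage stages before 8C. In 8C it read 586 and 1834, in 16C 221 and 35.6, in EM 160.0 and 217, in CM 269 and 238, and in BL 2.03 and 4.75. The neighbours thus shared the low blastocyst level beside the peak for which both were chosen, but of the pair only LOC789309 had reads in the MII oocytes. From 8C to CM the ratio of LOC789309 to LOC508086 within a sample varied between 6.48 and 28.1.

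SYNE1 (XLOC_070584) encodes nesprin-1, a large protein that ties the nuclear envelope to the cytoskeleton. Its reads followed a course with a minimum before the peak: 60.9 and 132 normalized counts in MII oocytes, 38.0 and 23.4 in 2C and 6.46 and 13 in 4C. The 8-cell embryos held 214 and 497. In 16C it read 47.9 and 11.3, in EM 37.1 and 32.1, in CM 12.2 and 54.4, and it was at 0 in both BL samples. In normalized counts SYNE1 was the only member whose highest other stage was the oocyte. In CPM its highest other stage was EM, at a mean of 42.3 against 41.8 in MII oocytes.

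ANKFY1 (XLOC_027803) encodes an endosomal protein with ankyrin repeats and a FYVE finger, and had reads in every sample. It lay between 19.1 and 43.0 normalized counts before 8C, at 369 and 241 in 8C, at 119 and 64.7 in 16C and between 15.5 and 41.7 later. SERINC4 (XLOC_035528), of the serine incorporator family of membrane proteins, had no sample with over 3 reads before 8C. It reached 108 and 264 there and then read 72.9 and 38.8 in 16C, 21.6 and 38.7 in EM, 7.76 and 66.6 in CM and 6.09 and 1.58 in BL. Both genes were lower in every later sample than in either 8-cell embryo.

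AOAH (XLOC_053610) encodes acyloxyacyl hydrolase, which detoxifies bacterial lipopolysaccharide by removing fatty acids from it. Its 8-cell values of 55.9 and 52.8 normalized counts rested on 31 and 46 reads and were close to the minimum of the rule. Elsewhere it lay between 0 and 14.1, and it was at 0 in both EM samples. The gene is known from immune cells, and the part of the blood and immune markers given above in its 8-cell values was not tested. Against the floor of 3 reads per library, the 8-cell mean was at least 31.1-fold higher than that of EM.

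Among the unmatched loci, LOC100849737 (XLOC_056864) climbed before the peak, from 30.5 and 37.2 normalized counts in MII oocytes to 34.0 and 215 in 2C and 457 and 492 in 4C. It held 12779 and 7234 in 8C, and all 8 later samples lay between 873 and 3048. LOC100850426 (XLOC_030152) was present throughout, at 26.9 to 123 before 8C, 645 and 602 in 8C, 245 and 136 in 16C and 56.7 to 97.6 afterwards. LOC100850879 (XLOC_019888) stayed at 8 reads or fewer up to 4C and read 90.1 and 603 in 8C. All of its 8 later samples lay between 57.7 and 126, so that 8C replicate 1 was within their range.

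LOC100296890 (XLOC_010511) was at 0 in all 6 samples before the 8-cell stage, where it read 128 and 104 normalized counts. Against the mean floor of those 6 libraries the 8-cell mean was at least 47.6-fold higher. It read 29.4 and 24.3 in 16C, lay between 4.69 and 7.73 in EM and CM, and stood at 13.2 and 52.3 in BL. LOC100295067 (XLOC_023761) read 75.7 and 65.4 in 8C and was at 0 in both 16C samples, at least 17.4-fold below by the floor. It had 21 reads in CM replicate 2, 7 and 14 reads in BL and no more than 3 in any other sample.

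**Figure D2:**
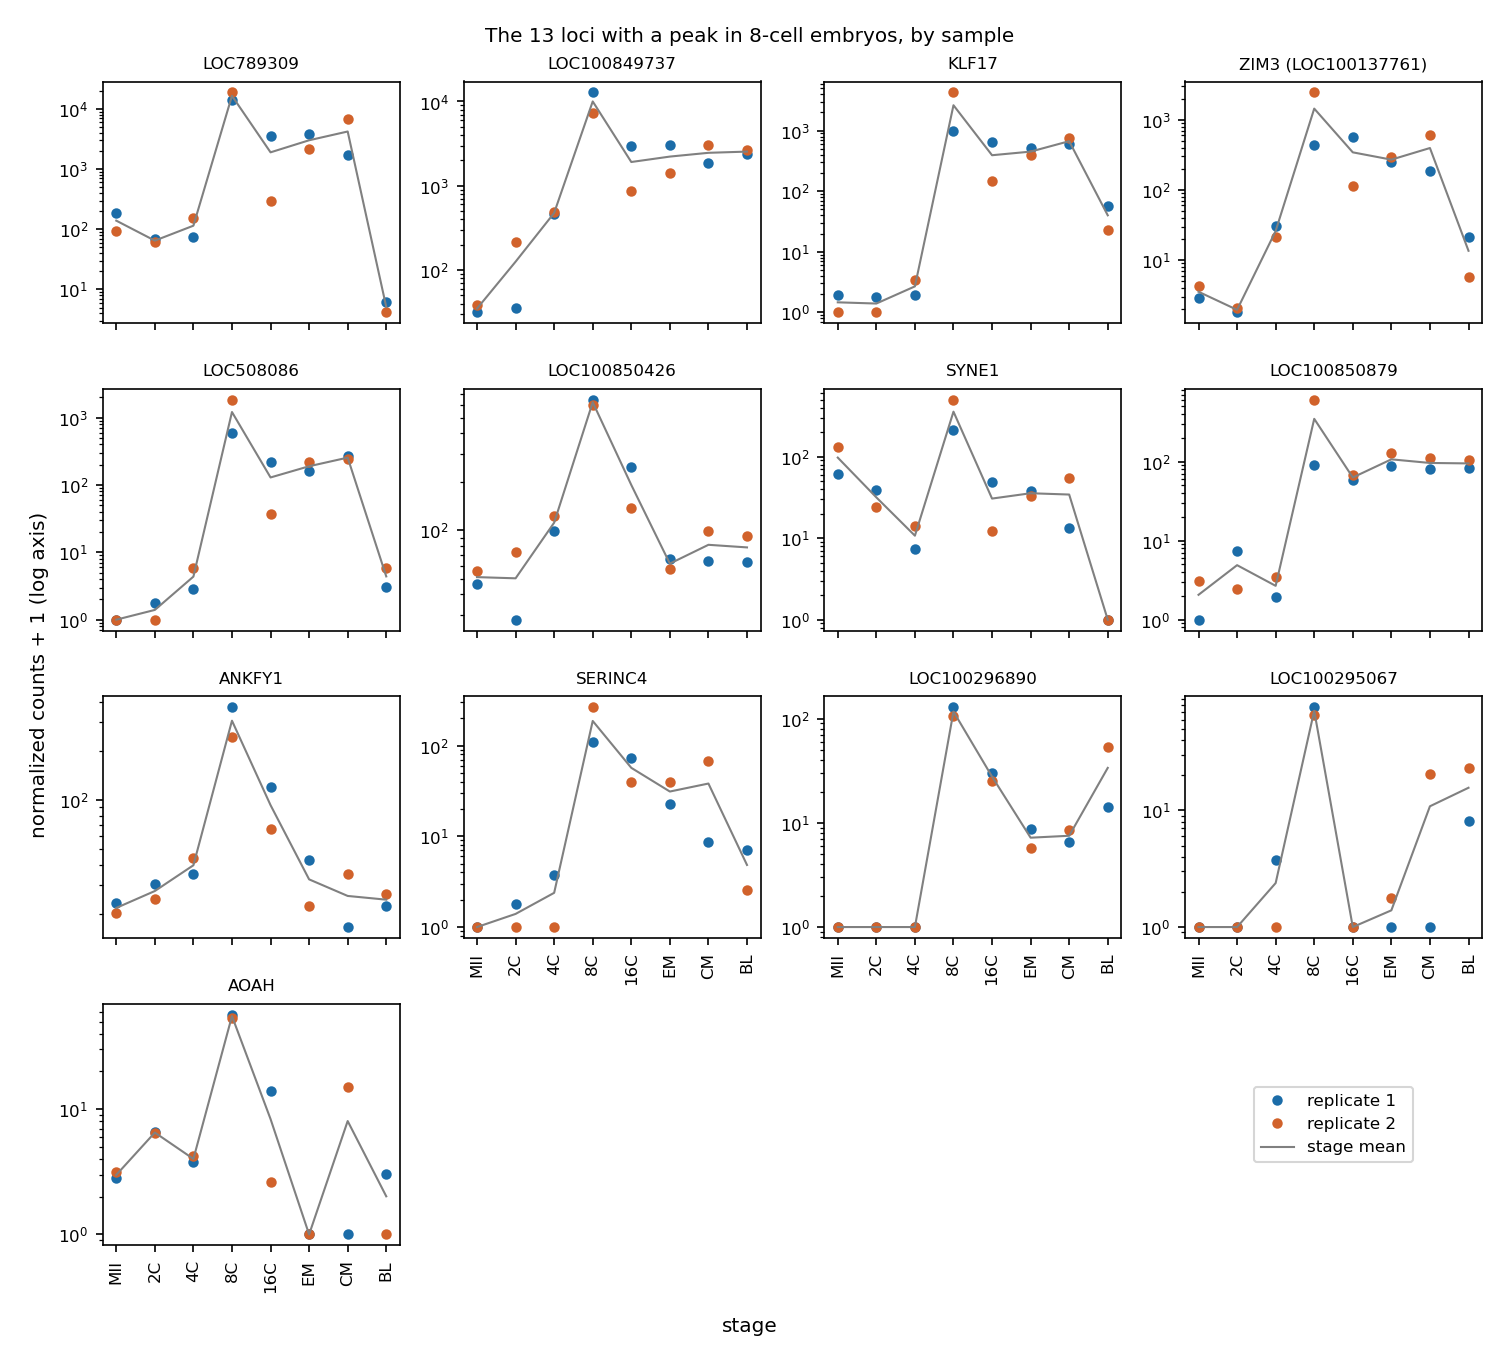
Normalized counts plus 1 (y axis, log scale, own range in each panel) of the 13 loci in replicate 1 (blue) and replicate 2 (orange) of the 8 stages on the x axis, with the stage mean as a line. The loci were chosen by their 8-cell values. In ZIM3 and LOC100850879 the 8-cell point of replicate 1 still lay within the range of the other stages.

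The course after the peak separated the loci. In 16C embryos the members stood at a median of 17.9% of their 8-cell mean, in EM at 15.6%, in CM at 20% and in BL at 2.06%. Those values describe loci that were chosen to lie well under the peak. The lower median in EM depended on the scale. LOC100850879, LOC508086 and SERINC4, the members at the medians of 16C, EM and CM, stood in CPM at 19.1%, 24.6% and 19.6%. Every member with reads in EM stood higher there in CPM than in normalized counts. LOC789309, KLF17, ZIM3, LOC508086, SYNE1, SERINC4 and AOAH ended under 5% of the 8-cell mean in BL. LOC100850426 and ANKFY1 ended at 12.4% and 7.65%, within the range of their samples before 8C. LOC100849737, LOC100850879, LOC100296890 and LOC100295067 stood there at 25.4%, 27.1%, 28.2% and 20.8%. The order was another one at the stages between. LOC100295067 stood at 0% in 16C and 0.554% in EM and LOC100296890 at 5.35% in EM and 5.62% in CM, whereas LOC789309, KLF17 and ZIM3 stood at 25.5%, 25.5% and 27.3% in CM. Where the embryos of a stage lay far apart, such percentages rest mostly on 1 of them. In 8C KLF17 read 989 and 4271, ZIM3 434 and 2452 and LOC100850879 90.1 and 603. LOC789309 read 1745 and 6688 in CM. By these means the loci did not share 1 course after the peak.

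**Figure D3:**
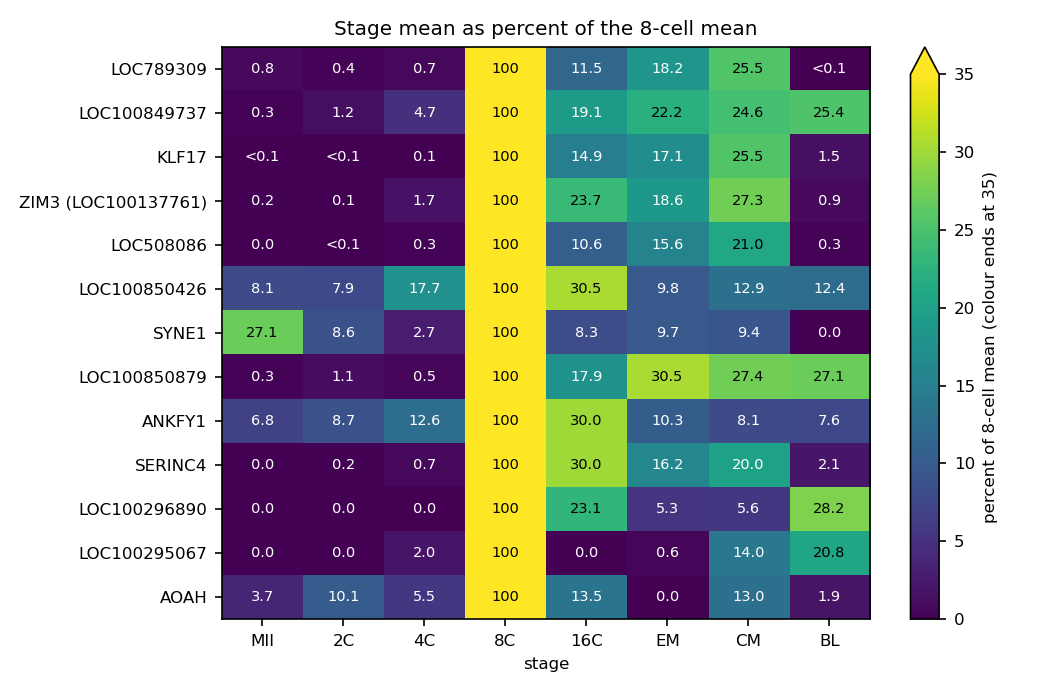
Mean of each locus (rows) in each stage (columns) as percent of its mean in the 8-cell stage, with the colour ending at 35%. KLF17 and ZIM3 still stood at 25.5% and 27.3% in CM and at 1.48% and 0.868% in BL, whereas LOC100849737 remained at 25.4% in BL.

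For the 13 members, differences between stages were tested only where the rule had set no direction, in stage pairs without the 8-cell embryos. The tests used limma on log2 of the normalized count plus 1, fitted over all 16 samples and 9670 loci, with Benjamini-Hochberg adjustment. For loci with few reads this scale understates a fold change. All 13 members passed the filter on low counts, also when the 8-cell samples were left out of it.

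From the 4-cell to the 16-cell stage, on either side of the peak, 7 of the 13 members were higher and 0 lower. Over all loci tested, 18.8% were higher and 19.1% lower. KLF17 rose by 6.89 on the log2 scale (standard error 0.81, adjusted p = 3.81e-05 from limma). LOC100296890 rose by 4.79 (standard error 0.76, adjusted p = 0.000282 from limma), at least 10.3-fold by the floor of 3 reads. SERINC4, LOC100850879 and LOC508086 rose by 4.80, 4.61 and 4.46, with adjusted p of 0.00181, 0.000842 and 0.000851 from limma. For ZIM3 the increase was 3.33 (standard error 0.91, adjusted p = 0.00985 from limma). LOC789309 rose by 3.24 (adjusted p = 0.0112 from limma). Both 16C samples of each of these 7 loci lay above both 4C samples. This goes with the calls by which they are named and is no further support, and the share over all loci was not counted.

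The calls of ZIM3 and LOC789309 rested on single libraries. Without 16C replicate 1, where 11 of the 13 members were higher than in replicate 2, their adjusted p were 0.145 and 0.205, and their log2 differences were 2.16 and 1.46. Without 4C replicate 1 LOC789309 had an adjusted p of 0.115 at a difference of 2.73, and without 4C replicate 2 ZIM3 had 0.0733 at 3.07. With 4C and 16C alone in the fit, LOC789309 had 0.072 at 3.24. LOC100849737 differed by 1.76 (standard error 0.77, adjusted p = 0.086 from limma). This locus passed by edgeR (adjusted p = 0.0468), by DESeq2 (adjusted p = 0.0309), with scaling to total reads (adjusted p = 0.0351 from limma) and without 16C replicate 2 (adjusted p = 0.0469 from limma). For LOC100850426, SYNE1, ANKFY1, LOC100295067 and AOAH the differences were 0.72, 1.26, 1.17, -0.96 and 0.60, with adjusted p between 0.126 and 0.692 from limma.

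From the 16-cell stage to early morulae, 0 members passed the threshold by limma, and 0 did so by edgeR and by DESeq2. Over all loci 0.0207% were higher and 0.0827% lower. At an unadjusted p under 0.05 from limma, 4 members were lower and 0 higher, against 6.2% and 4.76% of all loci at that threshold. These were AOAH, LOC100296890, LOC100850426 and ANKFY1, with log2 differences of -2.60, -1.97, -1.56 and -1.53. LOC789309 differed by 1.5 (standard error 0.91, adjusted p = 0.585 from limma).

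Before the peak, from MII oocytes to 4-cell embryos, 1 member was higher and 1 lower, against 6.48% and 2.19% of all loci. LOC100849737 rose by 3.78 on the log2 scale (standard error 0.77, adjusted p = 0.0123 from limma). SYNE1 fell by 3.15 (standard error 0.81, adjusted p = 0.029 from limma). Both calls were lost without MII replicate 2 (adjusted p = 0.0758 and 0.219 from limma), without 4C replicate 1 (0.0951 and 0.215) and without 4C replicate 2 (0.0888 and 0.1). The log2 differences were then 3.92, 3.83 and 3.72 for LOC100849737 and -2.60, -2.70 and -3.61 for SYNE1. ZIM3 differed by 2.88 (standard error 0.91, adjusted p = 0.0609 from limma). With scaling to total reads ZIM3 and LOC100850426 passed as well (adjusted p = 0.0281 and 0.0353 from limma) and SYNE1 did not (0.0584). ZIM3 also passed by DESeq2 (adjusted p = 0.0358), with both compared stages alone (0.0391) and without the 8-cell samples (0.0348).

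From compact morulae to blastocysts, a comparison added after the values were seen, 5 members were lower and 0 higher, against 1.5% and 2.92% of all loci. LOC789309 fell by 9.41 on the log2 scale (standard error 0.91, adjusted p = 9.41e-05 from limma). LOC508086 fell by 5.93 (adjusted p = 0.000737 from limma), ZIM3 fell by 4.92 (adjusted p = 0.00478) and KLF17 fell by 4.20 (adjusted p = 0.00627). SYNE1 fell by 4.76 (adjusted p = 0.00296 from limma), and by the floor it was at least 8.54-fold higher in CM. Without CM replicate 2 the calls of KLF17, ZIM3 and SYNE1 were lost (adjusted p = 0.0879, 0.108 and 0.0762 from limma), and without BL replicate 2 those of KLF17 and ZIM3 (0.13 and 0.123). The log2 differences were -4.04, -4.07 and -3.72 without CM replicate 2 and -3.55 and -3.98 without BL replicate 2. Past an unadjusted p of 0.05 but not after adjustment were 2 more members. SERINC4 differed by -2.51 (standard error 0.99, adjusted p = 0.189 from limma). LOC100296890 differed in the other direction by 1.88 (standard error 0.76, adjusted p = 0.196 from limma). LOC100295067 and AOAH differed by 1.59 and -1.16 (adjusted p = 0.5 and 0.649 from limma). LOC100849737, LOC100850426, LOC100850879 and ANKFY1 differed by 0.09 or less in either direction, with standard errors between 0.55 and 0.85.

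**Figure D4:**
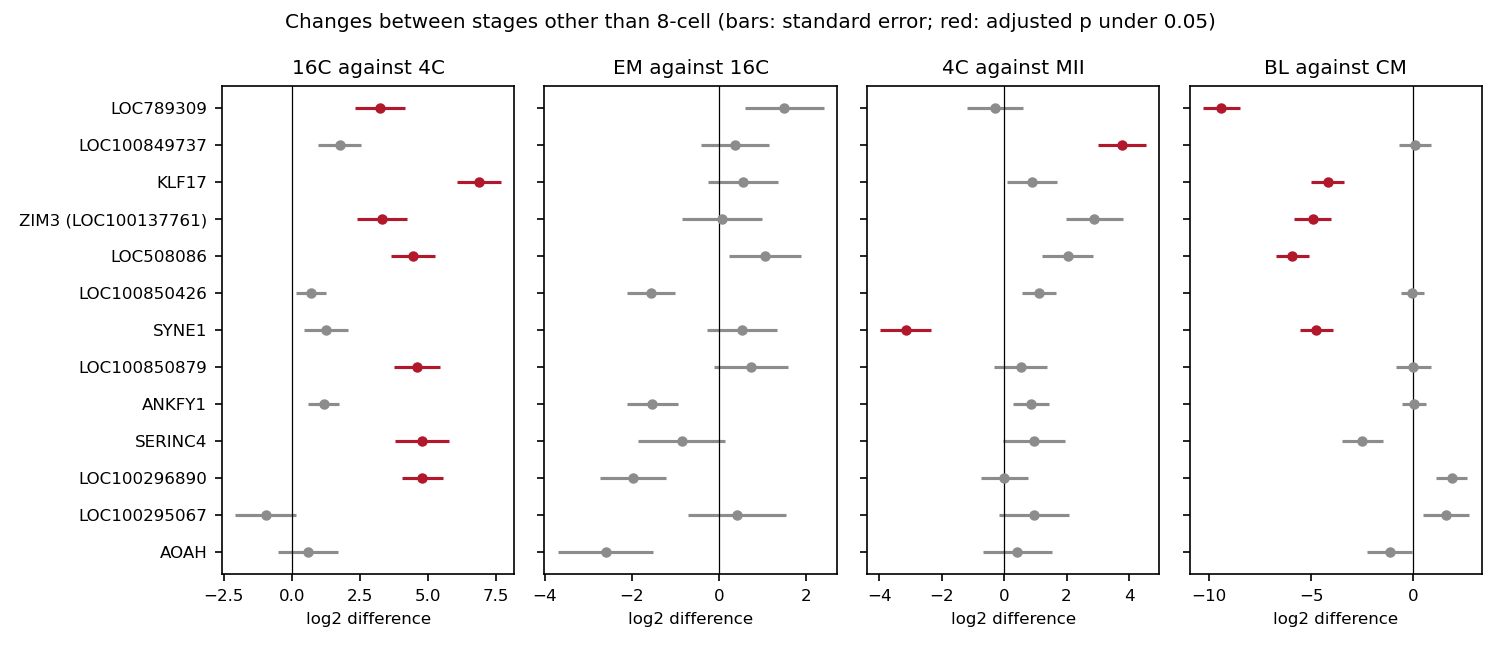
Log2 difference of the first against the second stage named above each panel (x axis, bars are standard errors from limma) for the 13 loci (y axis), in red where the adjusted p was under 0.05. The red points are 7 higher loci in 16C against 4C, none in EM against 16C, 1 higher and 1 lower in 4C against MII and 5 lower in BL against CM.

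The 8-cell embryos did not hold the members at equal levels. Replicate 2 was higher for 7 members and replicate 1 for 6. More than 2-fold apart were 6 members, LOC100850879, ZIM3, KLF17, LOC508086, SERINC4 and SYNE1, and each of these was higher in replicate 2, by 6.70, 5.65, 4.32, 3.13, 2.44 and 2.32 times. Among the 1426 named loci with 50 or more normalized counts in both embryos, 27.2% were more than 2-fold apart and 10.6% were more than 2-fold higher in replicate 2. AOAH, LOC100850426, LOC100295067, LOC100296890 and LOC789309 were within 1.31-fold. Replicate 2 also held the higher oocyte marker sum given above, and the part of that difference was not tested. Applied to 8C replicate 2 alone the rule found 62 loci, 11 of them among the 13, and to replicate 1 alone 31 loci, 7 of them among the 13.

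For 6 of the 13 names there was a second locus of the deposited data, and how these lie to each other is not given there. The second loci of KLF17, ZIM3, LOC789309, LOC508086 and AOAH had fewer reads and were also highest in 8C, from 3 reads in all at AOAH. Their 8-cell means were 0.663%, 7.19%, 0.589%, 0.955% and 2.11% of the respective member's. The second ZIM3 locus (XLOC_024409) read 34.2 and 173 normalized counts in 8C and no more than 23.3 elsewhere. Its ratio to the highest other stage was 4.83, and it missed the rule only by the minimum in replicate 1. For SYNE1 the order was the opposite. Its second locus (XLOC_070301) held 2394 and 4155 normalized counts in MII oocytes, 915 and 404 in 2C, 125 and 137 in 4C and 10.8 and 1.15 in 8C. The gene name SYNE1 therefore covered a locus that lost its oocyte reads and a locus with a peak in 8C, and reads of overlapping loci could not be told apart.

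The loci with the next lower and next higher number were examined for each member. Apart from LOC789309 and LOC508086 these were 24 loci, of which 15 had a mean under 10 normalized counts in 8C. The 8-cell stage was the highest for 4 of them, and only EEF1B2, next to LOC100850426, reached 50 there, with 1131 and 670 normalized counts in 8C and stage means of 247 to 691 later. EEF1B2 encodes a subunit of translation elongation factor 1. MYH9, next to LOC100849737, was highest in 16C at a mean of 6891, and ITM2B, next to LOC100296890, in 16C at a mean of 1245. MFAP1, next to SERINC4, was highest in MII oocytes at a mean of 3507.

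KLF17 and ZIM3 belong to a list of 44 genes known from genome activation of mammals, of which 25 were found in the deposited data. Of the other genes of the list, 15 could be tested. In 8C against 4C, 9 of them were higher and 0 lower, where 17.7% and 19.1% of all loci were. In 16C against 4C, 11 were higher and 1 lower, the latter TRIM49 (-3.74, adjusted p = 0.0481 from limma), where 18.8% and 19.1% of all loci were. The other lists went both ways. In 8C against 4C, 3 of 30 cell cycle regulators were higher and 6 lower. Of 15 p53 and stress response genes 2 were higher there and 5 lower. In 16C against 4C, 3 of 39 ubiquitin conjugating enzymes and ligases were higher and 8 lower. More higher than lower genes were found in some lists. In 8C against 4C, 8 of 17 immediate early genes, 17 of 36 translation initiation factors and 19 of 47 splicing factors and hnRNPs were higher, and 1, 3 and 0 of these were lower. In 16C against 4C, 10, 12 and 23 of the same lists were higher and 1, 3 and 1 lower. Those comparisons share the 4C samples, and the lists were drawn up with earlier results of these data known. KLF17 and ZIM3 were set apart from their list by their 8-cell values. The counts in 8C against 4C are therefore a description, and those of this list include ARGFX and DUXA. TFAP2C, a transcription factor of the AP-2 family, rose by 6.17 in 8C and 6.45 in 16C on the log2 scale (adjusted p = 8.41e-06 and 5.93e-06 from limma). POU5F1, the pluripotency factor OCT4, rose by 3.99 and 3.64 (adjusted p = 0.000174 and 0.000276 from limma).

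Among these genes the PRD-like homeobox genes ARGFX and DUXA had courses that came near to those of the members without meeting the rule. ARGFX (XLOC_000178) was at 0.923 normalized counts in MII replicate 1 and at 0 in the other 5 samples before 8C. It read 72.1 and 226 in 8C, 31.6 and 6.47 in 16C, 98.2 and 93.1 in EM, 51.0 and 95.7 in CM and 0 in both BL samples. Its 8-cell mean was 1.56 times that of EM, and 8C replicate 1 lay below both EM samples. DUXA, listed as LOC100297492 (XLOC_025069), is the neighbour of ZIM3 in the RefSeq table. It read 14.4 and 221 in 8C, 6.53 and 4.85 in 16C, 68.8 and 32.1 in EM, 15.5 and 59.1 in CM and at most 2.03 in BL. The ratio of its 8-cell mean to that of EM was 2.34. Since they are named here for their 8-cell values, these are a description without a test. In 16C against 4C, ARGFX rose by 3.96 (standard error 0.84, adjusted p = 0.00211 from limma). DUXA differed there by 2.73 (standard error 1.09, adjusted p = 0.0589 from limma). MBD3L3 had 11 reads in the whole data, all in 8C replicate 2.

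No member was found in the other 9 lists. Among all named loci with 50 or more normalized counts in both 8-cell embryos, the 8-cell stage was the highest for 24.2%. Of the list genes that reached the same minimum, it was the highest for 9 of 25 translation initiation factors, 5 of 27 splicing factors and hnRNPs, 5 of 13 genes of ribosome biogenesis and 3 of 6 RNA polymerase II subunits and general transcription factors. It was so for 2 of 12 histone and DNA modifiers, KDM1A and KDM5B, and for 2 of 14 ubiquitin conjugating enzymes and ligases, UBE2R2 and UBE2C. It was the highest for 1 of 3 p53 and stress response genes, ATF4, and for 0 of 2 immediate early genes and 0 of 4 cell cycle regulators at that minimum. Some genes of these lists below the minimum were also highest in 8C. Among them, named after their values were seen, were CDKN1A, ATF3, FOSB and AURKB, at means of 25.5, 47.9, 11.5 and 24.8 normalized counts. Others fell from 4C to 8C, such as MDM2 (82.1 to 2.38), SESN1 (23.7 to 1.15) and NR4A1 (26.0 to 0.573). The genes of either kind were not counted. For EIF5, EIF5A, NOP56, FBL and SNRPB the 8-cell mean was the highest, but less than 3 times that of another stage.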

How the data were processed

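Total RNA of individual in vivo oocytes and embryos was amplified in a pair of rounds and sequenced on the SOLiD platform by the authors. The submitters' processing notes name cutadapt, FastQC, TopHat, Cufflinks and HTSeq. The genome build, tool versions and the use of strand are not given in the sources used here. The deposited values are a signal per locus, the read count of each sample divided by a size factor by the authors. Dividing each sample's values by its smallest one gave whole reads for 100% of the values above 0 (tolerance 0.02 reads), and these reads were used as depth.

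Replicate numbers and stages came from the sample titles. Members were found on the deposited values, and members and gene lists were chosen with earlier results of these data known. All 13 members are named. Loci kept by filterByExpr (9670) were tested by limma 3.58.1 with a trend (R 4.3.3). Other gene names were matched to RefSeq symbols, gene numbers and synonyms (assembly ARS-UCD2.0), with no coordinates used. The test of 16C against 4C was checked on simulated counts of 9106 loci, 200 of them changed 8-fold. It recovered 73.5% of these 200, with 4 false calls. Whether the simulated spread and levels matched those of the members was not tested. In normalized counts LOC789309 read 3502 and 296 in the 16C embryos, and KLF17 read 0.922 and 2.44 in 4C. The recovery and false calls therefore describe the simulated counts and give no error rate for the calls of the members.

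Alternatives were edgeR 4.0.16 and DESeq2 1.42.0 on recovered reads, TMM and total read scaling, pseudocounts of 0.5 and 5 (1 in the main test), no filter, a replicate block, each replicate left out, fewer stages in the fit and other settings of the rule. Python 3.11.15, numpy 2.4.6 and pandas 2.3.3 were used.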

Additional observations from a re-analysis of the deposited data

How the results depend on the processing

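The number of loci depended on the rule. At least 2 times every other stage gave 46, 5 times gave 1, a minimum of 20 normalized counts gave 24, a minimum of 100 gave 10 and CPM gave 10 loci. With each sample left out in turn the number ran from 9 to 62, and 2 members (AOAH and LOC100295067) were kept whichever sample was left out. Without 16C replicate 2, the sample with fewest reads, 9 loci remained. In 16C against 4C, 5 to 8 members were higher and 0 lower with each replicate left out, and 6 to 8 higher under the other settings. In EM against 16C the counts were 0 under all settings run. In 4C against MII, 1 member was higher in the main test, 2 by DESeq2, 3 with scaling to total reads, 2 with both compared stages alone, 2 in a fit without the 8-cell samples (chosen after seeing the data) and 0 to 1 with replicates left out. The count of lower members there was 1, 0 with scaling to total reads and 0 to 1 with replicates left out. In BL against CM, 2 to 5 members were lower with replicates left out and 5 under the other settings. A stage left with 1 sample was assumed to vary like the other stages. With the replicate number as a block (replicate block) the counts were 7, 0, 1 and 5 as without it. The numbers mark different embryos. The deviations of same-numbered samples correlated between -0.257 and 0.134 over 28 stage pairs. No call changed direction. Counting each call of a member once for each alternative, 179 held and 17 did not. Calls gained under an alternative, such as LOC100849737 in 16C against 4C by edgeR, are not in this count. With 2 samples a stage, and 31 and 46 reads behind AOAH in 8C, precision was limited.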

Other observations

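The unannotated locus XLOC_012350, left out by the rule for its CUFF name, also met the rule's values. It read 52.2 and 76.8 normalized counts in 8C, was at 0 in all 6 earlier samples, read 10.9 and 0 in 16C, lay between 0 and 5.54 in EM and CM, and was at 0 in both BL samples. Its 8-cell mean was 11.9 times the highest other stage mean, a larger ratio than that of AOAH, at 7.40 the highest among the 13 named loci. GLT8D1 was the only locus that met the rule in CPM and not in normalized counts. SNRPB, a core splicing protein and the locus numbered next to XLOC_012350, was also highest in 8C, at a stage mean of 51.9 normalized counts, but read 45.6 in CM and 1.45 to 2.92 before 8C.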
